A study of Homo sapiens with 4 samples.

Results

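The MS4A genes form a cluster on chromosome 11 that encodes a family of small membrane proteins of blood cells. 10 family members were named for study, and 6 of them (MS4A2, MS4A3, MS4A4A, MS4A6A, MS4A6E and MS4A7) were found by their symbols among the 32673 genes of the expression table. MS4A1, MS4A8, MS4A14 and MS4A15 were not analysed here. The set was chosen because the level of MS4A3 is higher in the imatinib-resistant cells of this comparison, so the members' differences between the cell lines, and the calls that the fit over all genes gave them, are a description and no test of the set.

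RNA was sequenced from 2 lines of TF1 cells, a human myeloid leukaemia line that grows with the cytokine GM-CSF, as paired reads of 150 bp. Both lines carry the BCR-ABL oncogene, brought into TF1 cells by a retrovirus, and both were grown with GM-CSF. TF1-BA cells are sensitive to imatinib, an inhibitor of the BCR-ABL kinase. TF1-BAR cells are the resistant line, which arose from TF1-BA cells under continuous imatinib and was cultured with 2 uM of the drug. There were 2 libraries per line, each from 10000000 cells, and as far as the sources state each line was derived once. The TF1-BAR libraries carry the title VECTOR in the labels, so the effects of resistance, of the drug itself and of a control vector cannot be told apart. The sources do not state that the libraries of a line came from separate cultures, so the error given here is the spread between libraries and may be technical.

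MS4A proteins cross the membrane several times and mostly act by binding other receptors and changing their signalling or their traffic to and from the surface. MS4A3 marks granulocyte and monocyte progenitors and basophils, and its product binds a cyclin-dependent kinase and its phosphatase, and helps to take the shared beta chain of the GM-CSF and IL-3 receptors into the cell. MS4A2 encodes the beta chain of the high-affinity IgE receptor of mast cells and basophils, whereas MS4A4A, MS4A6A and MS4A7 are best known from monocytes, macrophages and microglia.

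The promoters of the 4 tested members and of MS4A4E are shown because these genes differed in how their levels changed. That of MS4A7, barely expressed, is counted but not shown, and MS4A6E was matched to no promoter in the RefSeq table. Each sequence runs 5′ to 3′ on the strand of the gene, from 250 bases before the RefSeq start site to 50 bases after it (GRCh38.p14). Capitals mark GATAA on either strand, the core letters bound by GATA factors, and GAGGAA on either strand, letters bound by PU.1 and other ETS factors. MS4A4E was not among the 10 named members but lies inside the cluster. For MS4A6A, the start nearest to that of the expression table was taken from 4 in the RefSeq table. The RefSeq start lies inside the gene as the expression table gives it by 403 bases for MS4A2, 125 for MS4A4A, 78 for MS4A3 and 50 for MS4A7, at its start for MS4A6A, and outside it, at -49, for MS4A4E.
MS4A3, chr11:60056415-60056714, plus strand: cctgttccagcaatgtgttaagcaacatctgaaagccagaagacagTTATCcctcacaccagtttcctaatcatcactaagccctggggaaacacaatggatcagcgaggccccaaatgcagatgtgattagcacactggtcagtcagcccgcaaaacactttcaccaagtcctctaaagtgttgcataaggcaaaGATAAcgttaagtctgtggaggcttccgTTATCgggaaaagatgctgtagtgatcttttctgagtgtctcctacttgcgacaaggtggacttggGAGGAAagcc
MS4A2, chr11:60088414-60088713, plus strand: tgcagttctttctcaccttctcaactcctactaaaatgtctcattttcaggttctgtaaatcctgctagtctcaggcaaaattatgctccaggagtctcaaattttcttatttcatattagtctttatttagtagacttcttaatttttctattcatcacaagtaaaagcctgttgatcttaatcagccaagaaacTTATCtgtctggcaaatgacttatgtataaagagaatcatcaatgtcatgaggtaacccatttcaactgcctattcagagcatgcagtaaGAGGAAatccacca
MS4A6A, chr11:60184617-60184916, minus strand: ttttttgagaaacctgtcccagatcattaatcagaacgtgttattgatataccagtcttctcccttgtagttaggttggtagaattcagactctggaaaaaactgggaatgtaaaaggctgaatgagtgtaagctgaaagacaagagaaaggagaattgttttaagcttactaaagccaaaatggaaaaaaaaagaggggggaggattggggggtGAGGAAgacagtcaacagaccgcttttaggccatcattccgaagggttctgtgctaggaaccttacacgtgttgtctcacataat
MS4A4E, chr11:60243088-60243387, minus strand: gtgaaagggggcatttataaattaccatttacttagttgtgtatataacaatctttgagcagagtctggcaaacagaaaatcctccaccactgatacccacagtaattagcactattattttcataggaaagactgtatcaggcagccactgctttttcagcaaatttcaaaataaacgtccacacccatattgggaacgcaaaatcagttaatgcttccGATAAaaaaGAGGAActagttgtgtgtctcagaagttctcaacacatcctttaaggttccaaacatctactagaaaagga
MS4A4A, chr11:60280416-60280715, plus strand: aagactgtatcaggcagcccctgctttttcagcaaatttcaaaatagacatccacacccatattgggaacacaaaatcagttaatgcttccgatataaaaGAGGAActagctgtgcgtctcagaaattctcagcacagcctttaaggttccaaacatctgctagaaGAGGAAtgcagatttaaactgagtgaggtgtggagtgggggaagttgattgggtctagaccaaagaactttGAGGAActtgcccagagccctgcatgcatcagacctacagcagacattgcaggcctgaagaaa

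The promoter of MS4A3 held GATAA 3 times, at positions -204, -54 and -26 from the start site. MS4A2 held it once, at -54, and MS4A4E once, at -30. No GATAA lay in the windows of MS4A6A, MS4A4A or MS4A7, and 22.7% of all 35116 promoters of this length held at least 1. GAGGAA was found 3 times in the MS4A4A window and once in each of the other 5, beside 27.9% of all promoters. The letters TTGCNNAA, of the kind bound by C/EBP factors, occurred at 2 places in the MS4A3 window and at 1 place each in those of MS4A4E and MS4A4A (10.5% of all promoters). TTCNNNGAA, the STAT letters, and TGANTCA, the AP-1 letters, were in none of the 6 windows, and 7.66% and 7.71% of all promoters held them. These 3 motifs are not marked in capitals. A match of letters is a description and does not show that a factor binds there. The windows of MS4A4E and MS4A4A, which lie on opposite strands, aligned over 171 bases with 159 identical and no gap, and the pair with the next highest number of identical bases, MS4A3 and MS4A4A, aligned over 62 columns with 39 identical. Shorter alignments of other pairs had up to 91.7% of their columns identical, over 12 columns for MS4A4A and MS4A7. With 35.3% to 47.3% G and C, the 6 windows all lay below the median of all promoters, 58.7%. The shares given over all promoters are not matched for this, which matters most for GATAA, letters rich in A and T.

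MS4A3 was the member with the highest expression level in every library and had the highest difference between the lines. MS4A2 and MS4A4A were also higher in both TF1-BAR libraries, whereas MS4A6A, which lies between them, was at about the same level in both lines. MS4A6E and MS4A7 were close to the limit of detection. Levels are FPKM, fragments scaled to the length of the gene and to the mapped total of the library, so genes can be compared with each other, except those shorter than the reads. Fragments are the sequenced pieces behind each value, recovered from the FPKM as whole numbers.

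MS4A3 (ENSG00000149516) spans chr11:60056587-60071128 on the plus strand. Its FPKM was 50.4 and 51.6 in TF1-BA replicates 1 and 2, and 312 and 282 in TF1-BAR replicates 1 and 2. These values rest on 1906, 1672, 10317 and 9495 fragments. Both TF1-BAR libraries lay far above both TF1-BA libraries. In bulk RNA such as this, more cells that express a gene and more of its RNA per cell cannot be told apart. The mean was 51.0 ± 0.834 FPKM in TF1-BA and 297 ± 21.6 FPKM in TF1-BAR (SD, n = 2), a ratio of 5.83. The difference was 2.53 on the scale of log2(FPKM + 0.5), with an SE of 0.071 from limma. It was the 18th highest of the 15519 genes tested. By mean level, MS4A3 moved from rank 739 of all 32673 genes in TF1-BA to rank 84 in TF1-BAR.

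MS4A2 (ENSG00000149534), at chr11:60088261-60098466 on the plus strand, starts 31.7 kb from the start of MS4A3 and was expressed at a far lower level. Its FPKM was 0.884 and 1.03 in TF1-BA and 3.03 and 2.18 in TF1-BAR, from 71, 71, 213 and 156 fragments. The groups did not overlap, but the 2 TF1-BAR libraries differed from each other more than the TF1-BA libraries did. The means were 0.957 ± 0.104 and 2.61 ± 0.605 FPKM (SD, n = 2), a ratio of 2.72. On the log2(FPKM + 0.5) scale the difference was 1.08 (SE 0.18), which understates the change of a gene this low. From the fragments alone, the rate in TF1-BAR was 2.74 times that in TF1-BA (95% exact interval 2.25 to 3.34). That interval covers counting error only.

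MS4A6A (ENSG00000110077), at chr11:60172014-60184666 on the minus strand, lies 128 kb from the MS4A3 start. Its FPKM was 20.03 and 18.9 in TF1-BA and 19.7 and 16.9 in TF1-BAR, from 1576 to 2093 fragments per library. The libraries of the cell lines overlapped. The means were 19.5 ± 0.822 and 18.3 ± 1.94 FPKM (SD, n = 2), and the log2 difference was -0.089 (SE 0.095), smaller than its error. In TF1-BA cells MS4A6A stood at about the same level as MS4A4A, and in TF1-BAR cells at 18.3 FPKM against 37.8 FPKM.

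MS4A4A (ENSG00000110079), at chr11:60280541-60308972 on the plus strand, starts 224 kb from the MS4A3 start. Its FPKM was 19.8 and 17.7 in TF1-BA and 41.7 and 33.9 in TF1-BAR, from 896, 685, 1648 and 1367 fragments. Both TF1-BAR libraries lay above both TF1-BA libraries. The means were 18.7 ± 1.51 and 37.8 ± 5.50 FPKM (SD, n = 2), a ratio of 2.02. The log2 difference of 0.99 (SE 0.12) fell just short of the fold threshold of 1 used for calls. It was past that threshold with a pseudocount of 0.1 (1.00), after rescaling to TPM (1.07) and with limma voom on the fragments (1.01). When TF1-BA replicate 1 or 2 was left out, the difference was 1.07 or 0.91, and when TF1-BAR replicate 1 or 2 was left out, 0.84 or 1.14. Of these 4, the gene was called in the last alone.

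MS4A6E (ENSG00000166926) is annotated over chr11:60334831-60396596 on the plus strand, a span that holds MS4A7 on the same strand. Its FPKM was 0.105 and 0.122 in TF1-BA and 0.300 and 0.353 in TF1-BAR, which is 2, 2, 5 and 6 fragments at the length fitted. With so few fragments a multiple of these numbers would give the same FPKM, so they are uncertain. The order of the lines was that of MS4A3. If the numbers are as fitted, 11 fragments against 4 gave a rate ratio of 2.89 with an exact 95% interval from 0.858 to 12.5, and more fragments would give a narrower interval. MS4A7 (ENSG00000166927), at chr11:60378482-60395951, had no fragment in 3 libraries and 1 in TF1-BAR replicate 2 (0.0143 FPKM). A count of 0 allows up to 3 fragments, which is 0.0383 to 0.0446 FPKM for MS4A7 in these libraries. Neither gene passed the filter of a mean of at least 0.5 FPKM, so neither was tested.

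**Figure D1:**
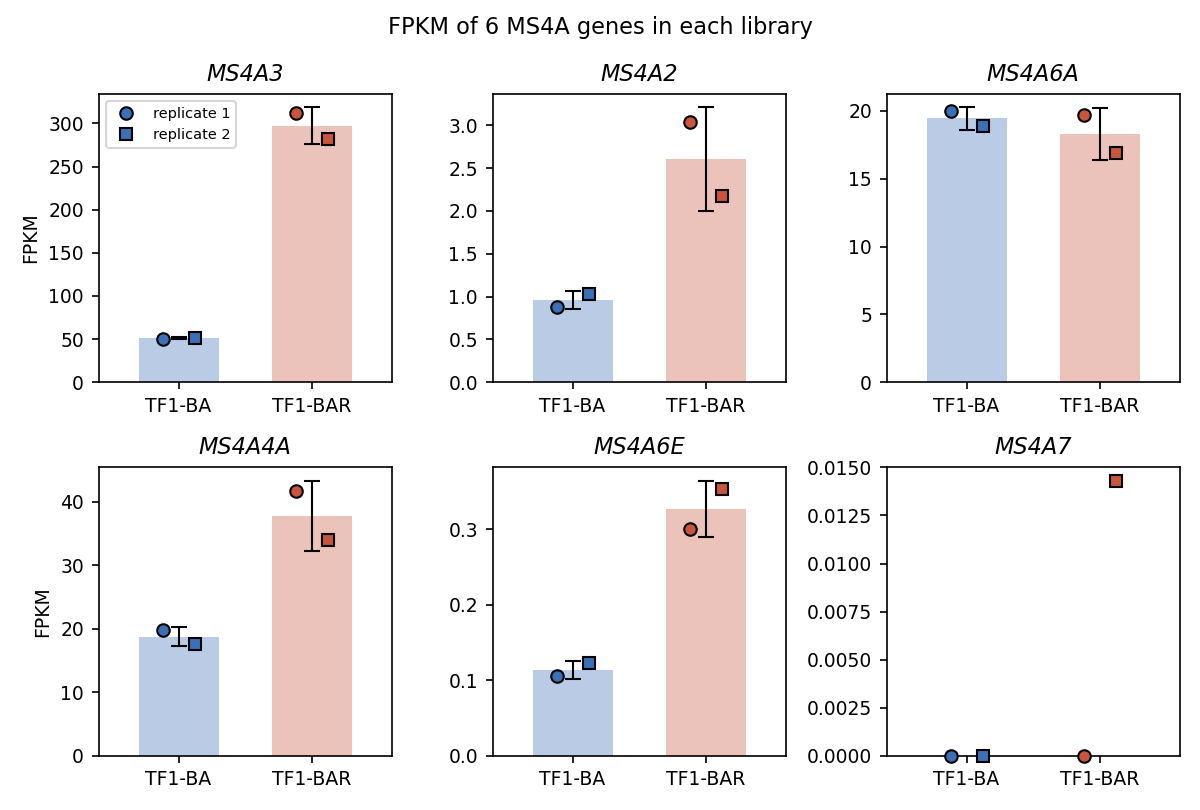
FPKM of the 6 MS4A genes, 1 panel per gene with its own linear axis from 0, in the imatinib-sensitive TF1-BA and the resistant TF1-BAR cells. Circles and squares are the libraries of replicates 1 and 2, bars are means and error bars are SD (n = 2), left out for MS4A7, which had 1 fragment in all. The TF1-BAR libraries sit above the TF1-BA libraries for MS4A3, MS4A2, MS4A4A and MS4A6E, and overlap them for MS4A6A.

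Sequence shared between family members could split reads among them. Of all stretches of 75 bases in the annotated transcripts, no pair among MS4A2, MS4A3, MS4A4A, MS4A4E, MS4A6A, MS4A6E and MS4A7 had one in common, except MS4A6A and MS4A6E. These shared 54 stretches, which is 3.43% of those of MS4A6E and 0.880% of those of MS4A6A. The few fragments of MS4A6E are therefore uncertain in their origin, also because its span overlaps MS4A7. Whether the counting used strand is not given in the sources used here.

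Among the tested members the ranking by level was MS4A3, MS4A6A, MS4A4A and MS4A2 in TF1-BA, where the libraries of MS4A6A and MS4A4A overlapped. In TF1-BAR the order was MS4A3, MS4A4A, MS4A6A and MS4A2, with no overlap between neighbours. Together with MS4A4E, the MS4A genes summed to 96.0 and 94.1 FPKM in TF1-BA and to 389 and 346 FPKM in TF1-BAR. MS4A3 made up 52.5% and 54.8% of this sum in TF1-BA, and 80.4% and 81.5% in TF1-BAR. The share of MS4A6A fell from 20.9% and 20.1% to 5.06% and 4.89%, at a level that overlapped between the lines. The share of MS4A4A was 20.6% and 18.8% in TF1-BA and 10.7% and 9.80% in TF1-BAR, although its level was higher in TF1-BAR. All 4 tested members were lower in TF1-BAR replicate 2 than in TF1-BAR replicate 1.

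A gene was called when its absolute log2 difference was at least 1 and its limma adjusted p was under 0.05, the thresholds stated in the methods of the study. By these, 2 of the 4 tested members (MS4A3 and MS4A2) were called higher in TF1-BAR and 0 lower, where 4.75% of the 15519 tested genes were called, 3.05% higher and 1.69% lower. With the adjusted p alone, 3 of 4 were called, all higher, where 16.3% of all genes were called higher and 10.5% lower. In 3 of 4 both TF1-BAR libraries lay above both TF1-BA libraries, which held for 40.9% of all tested genes. The median log2 difference was 1.03 over the 4 members, 0.11 over 827 tested genes of chromosome 11 and 0.066 over all tested genes. Because MS4A3 was chosen on this difference, and members below the filter are left out, these counts describe the set and are no support for it.

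**Figure D2:**
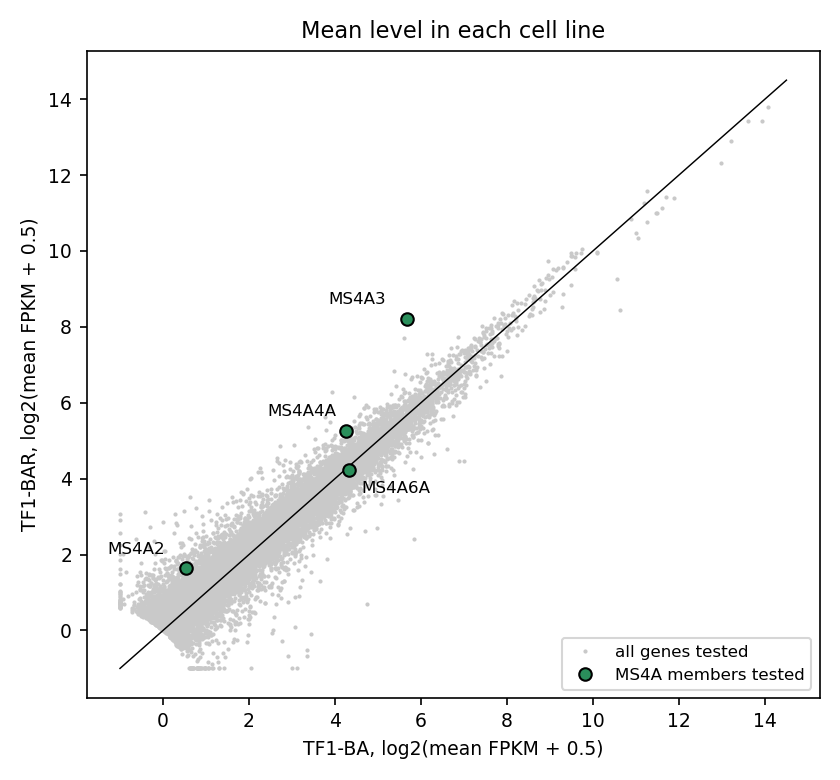
Mean level of every tested gene in TF1-BA (x axis) and TF1-BAR (y axis), both as log2(mean FPKM + 0.5). Grey points are the 15519 genes tested, green points the 4 tested MS4A members, and the line marks equal levels. MS4A3 stands well above the line, MS4A2 and MS4A4A lie closer to it, and MS4A6A lies on it.

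The MS4A2 call was not made in every alternative. It was lost with a pseudocount of 1 FPKM (log2 difference 0.87), with quantile normalization (0.96) and without TF1-BAR replicate 1 (0.88). With no filter on low values it was lost by the adjusted p alone, at an unchanged difference of 1.08. It was also lost without TF1-BA replicate 1 (1.01) or TF1-BA replicate 2 (1.15), where the difference passed 1 but the adjusted p did not pass. A fit without a library has 1 sample in one line, which is assumed to vary like the other line, and over all genes 144 and 42 were called without TF1-BA replicate 1 or 2. Without TF1-BAR replicate 2 the call held at 1.28. The log2 difference of MS4A3, on which the set was chosen, lay between 2.46 and 2.61 in the alternatives.

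The other genes in and beside the cluster were taken up to 500 kb beyond the outermost MS4A genes. Of 26 such genes, 15 were tested, 5 were called higher in TF1-BAR and 0 lower, beside 3.05% of all genes called higher. 4 of 9 tested genes to the left of MS4A3 were called, 1 of 3 inside the cluster and 0 of 3 to the right of MS4A6E. Side and distance cannot be told apart here, since the 3 genes to the right lie 445 to 494 kb from the end of MS4A6E, the last member analysed here, and the 4 called genes to the left 60.7 to 302 kb from MS4A3. The right edge is that of the members analysed here and not of the whole family. Genes this close can overlap in their transcripts, so they are not independent of each other.

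MS4A4E, a family gene between MS4A6A and MS4A4A (chr11:60201253-60243088, minus strand), had 4.80 and 4.81 FPKM in TF1-BA and 11.6 and 10.7 FPKM in TF1-BAR, with no overlap. Its log2 difference was 1.13 (SE 0.080, limma adjusted p = 0.00409). MS4A6A, whose libraries overlapped between the lines, thus lies between MS4A2 and MS4A4E, which were both higher in TF1-BAR. TCN1, which encodes a vitamin B12 binding protein of granulocytes, lies 190 kb to the left of MS4A3. It had 7.83 and 7.66 FPKM in TF1-BA and 29.8 and 28.3 FPKM in TF1-BAR, a log2 difference of 1.84 (SE 0.069, limma adjusted p = 0.00145). STX3, a syntaxin of vesicle fusion, rose from 7.55 and 8.39 to 19.5 and 21.6 FPKM, by 1.31 on the log2 scale (SE 0.092, limma adjusted p = 0.00409).

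OOSP1 (log2 difference 1.18, limma adjusted p = 0.0250) and AP000640.1 (1.02, limma adjusted p = 0.0473) rested on 10 to 47 fragments per library, and AP000640.1 passed the filter through its TF1-BAR libraries alone. Both calls were lost with a pseudocount of 1 FPKM and with no filter. That of AP000640.1 was also lost with a filter of at least 1 FPKM, with quantile normalization and with eBayes without the trend. MRPL16, a subunit of the mitochondrial ribosome, and PTGDR2, a prostaglandin D2 receptor gene to the right of MS4A6E, had an adjusted p under 0.05 in limma with smaller log2 differences of 0.44 and 0.76. CCDC86 (0.098) and PRPF19 (0.11), also to the right, did not pass. All 3 tested genes on that side were higher in both TF1-BAR libraries, which held for 40.9% of all tested genes. Of the 5 called genes only TCN1 was called when TF1-BA replicate 1 or TF1-BA replicate 2 was left out, whereas MS4A4E, STX3, OOSP1 and AP000640.1 were lost in both cases.

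**Figure D3:**
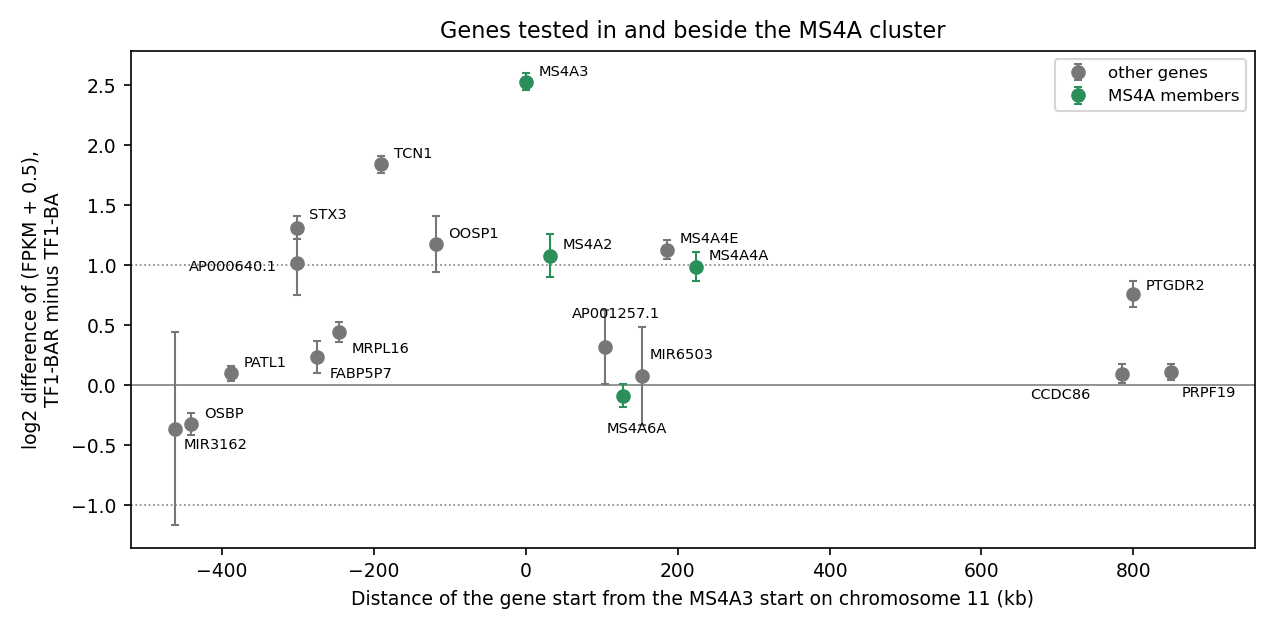
Log2 difference of (FPKM + 0.5) between TF1-BAR and TF1-BA for each tested gene (y axis) against the distance of its start from that of MS4A3 in kb (x axis), with bars of 1 SE. Green points are MS4A members and grey points other genes, and the dotted lines mark the fold threshold of 1 in either direction. MS4A3 is highest at 2.53, MS4A2, MS4A4E and MS4A4A lie near 1 and MS4A6A lies at -0.089.

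The partners are genes whose products are known to work with MS4A proteins. 15 were listed and 11 passed the filter, of which 2 were called higher and 0 lower, where 3.05% of all tested genes were called higher and 1.69% lower. The alpha chain gene of the IgE receptor, FCER1A, had 25.6 and 24.6 FPKM in TF1-BA and 58.8 and 56.1 FPKM in TF1-BAR (log2 difference 1.18, SE 0.064, limma adjusted p = 0.00289). It was thus higher together with the beta chain gene MS4A2, while FCER1G, the gamma chain gene, had a log2 difference of -0.035 (limma adjusted p = 0.770). In TF1-BA cells FCER1A and FCER1G were each at 24.6 to 34.3 FPKM, far above MS4A2. The kinases that act under this receptor, LYN (0.19) and SYK (0.25), did not pass.

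KIT, the stem cell factor receptor, which the MS4A4A product is known to affect in mast cells, had 28.4 and 25.4 FPKM in TF1-BA and 58.7 and 59.3 FPKM in TF1-BAR (1.12, SE 0.077, limma adjusted p = 0.00409). Both the FCER1A and the KIT call were lost without TF1-BA replicate 2, which left 0 of the partners called and 42 genes in all. Among the partners of MS4A3, CDKN3, the phosphatase, was at 13.7 and 14.1 FPKM in TF1-BA and at 9.12 and 10.7 FPKM in TF1-BAR. Its log2 difference of -0.47 (limma adjusted p = 0.0285) passed the adjusted p and not the fold threshold. CDK2 (0.081), CSF2RB (0.27), CSF2RA (-0.19), IL3RA (-0.13) and IL5RA (-0.50, limma adjusted p = 0.0501) did not pass. TREM2 was at 0 in every library, and CLEC7A and the family's relatives on chromosome 7, TMEM176A and TMEM176B, were below the filter.

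**Figure D4:**
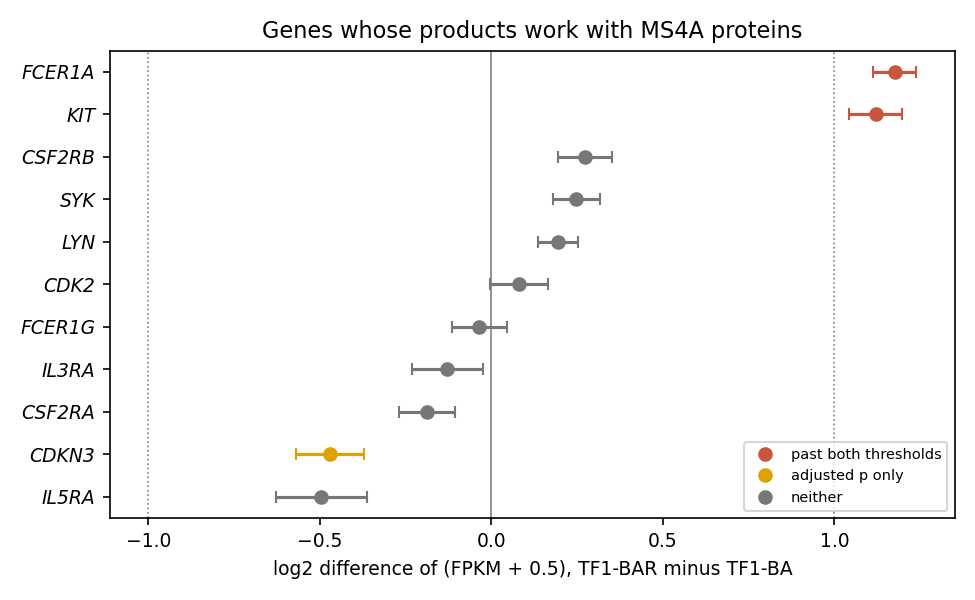
Log2 difference of (FPKM + 0.5) between TF1-BAR and TF1-BA (x axis) with bars of 1 SE for the 11 tested partner genes (y axis). Red marks genes past both thresholds, yellow a gene past the adjusted p alone and grey the rest, and the dotted lines are the fold threshold. FCER1A and KIT lie past 1, and the other 9 genes lie between -0.50 and 0.27.

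The members are markers of several blood cell types, so the lists of those types are given beside them, to be read against the 3.05% of all tested genes called higher and 1.69% called lower. All 11 progenitor and erythroid markers of the labelled TF1 cells were expressed, and their summed level was 542 to 551 FPKM in TF1-BA and 637 to 662 FPKM in TF1-BAR. KIT and CD34, a surface marker of progenitors (1.17, limma adjusted p = 0.00409), were called higher and 0 lower. TAL1 (0.76) and GATA2 (0.25), transcription factors of early blood cells, were higher by the limma adjusted p alone. 4 of the 11 markers lay lower in both TF1-BAR libraries without passing, HBG2 (-0.41), KLF1 (-0.34), CSF2RA (-0.19) and GATA1 (-0.14). This held for 28.4% of all tested genes. 6 of the 11 lay higher in both TF1-BAR libraries, as did 40.9% of all tested genes. The mast cell and basophil list, without MS4A2, summed to 261 to 273 FPKM and 361 to 374 FPKM. GATA2, which is also on the progenitor list, made up most of that sum, and without it the range was 66.7 to 69.5 FPKM in TF1-BA and 128 to 133 FPKM in TF1-BAR. FCER1A and HDC made up most of this remainder. HDC had 26.1 and 26.0 FPKM in TF1-BA and 57.5 and 64.4 FPKM in TF1-BAR. Of the others, CPA3 lay higher in both TF1-BAR libraries, TPSB2, TPSAB1 and PRG2 lay lower in both, and CLC overlapped. Of the 8 tested genes of the mast cell and basophil list, MS4A2 included, 4 were called higher (MS4A2, FCER1A, HDC and CPA3) and 0 lower, while CLC was at 0 in 2 libraries. CPA3, at 0.180 and 0.105 FPKM in TF1-BA and 1.44 and 1.62 FPKM in TF1-BAR, passed the filter through the TF1-BAR libraries alone, so its call is no independent count. Nor is the call of MS4A2, a member of the set chosen on this contrast. 2 others, TPSB2, a mast cell tryptase (-0.74), and PRG2, a granule protein (-0.58), were lower by the limma adjusted p alone, and TPSAB1, a further tryptase, was at -0.38 without passing. The granulocyte list summed to 30.5 to 33.3 FPKM in TF1-BA and 67.6 to 70.0 FPKM in TF1-BAR. 1 of its 5 tested genes was called, CTSG, the granule protease cathepsin G, at 11.3 and 14.9 against 49.9 and 48.3 FPKM. Without CTSG the list summed to 18.4 to 19.2 FPKM and 19.3 to 20.1 FPKM. PRTN3, proteinase 3, was lower by the limma adjusted p alone (-0.98) but passed the filter through its TF1-BA libraries alone, and AZU1 was at -0.34 without passing. Below the filter, ELANE, neutrophil elastase, had 3 and 6 fragments in TF1-BA and 0 in TF1-BAR, and MPO, myeloperoxidase, had 9 and 9 fragments in TF1-BA and 27 and 31 in TF1-BAR.

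The monocyte and macrophage list, for which MS4A4A, MS4A6A and MS4A7 are known, summed to 1.64 to 1.89 FPKM in TF1-BA and 4.37 to 5.02 FPKM in TF1-BAR, for 6 of 9 markers found. Its 2 tested genes, VSIG4 and CSF1R, were called higher, but CD14 and CD163, defining genes of monocytes and macrophages, had 0 or 1 fragment in each library. CSF1R passed the filter through its TF1-BAR libraries alone (0.215 and 0.326 against 1.34 and 1.32 FPKM), so the count of 2 is not support for a change of the list. Of the B cell list, 5 of 7 genes were found, summing to 7.71 to 8.34 FPKM and 14.7 to 15.2 FPKM. CD79B was the only 1 of its 4 tested genes called, CD79A (0.61) and CD22 (0.51) were higher by the limma adjusted p alone, and PAX5, a defining B cell factor, was at most at 0.139 FPKM. The part of these changes in the levels of the members was not tested.

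By Euclidean distance over the 4 libraries of log2(FPKM + 0.5), no other MS4A gene was among the 5 tested genes closest to MS4A3. These were MIR126 (distance 0.851), SNHG1 (1.53), MEG3 (1.57), SNHG8 (1.75) and C6orf48 (1.82). The closest, a microRNA gene of 85 bases, had 48.3 and 47.9 FPKM in TF1-BA and 178 and 242 FPKM in TF1-BAR. These values rest on 74, 63, 238 and 331 fragments. The gene is shorter than the reads of 150 bp, so its fragments need not come from the microRNA. Its FPKM is therefore hard to compare with that of MS4A3. The measure rewards a like level as well as a like difference, and 4 points from 2 cell lines can order many genes alike.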

How the data were processed

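Per the submitters' processing notes, the authors mapped the reads to GRCh38 with TopHat2 2.0.13 and made the deposited FPKM values with Cufflinks and Cuffdiff 2.2.0; the annotation release is not given in the sources used here. Library sizes and gene lengths that made the values of a gene whole were searched for, and all 30853 genes above 0 came out whole within 0.002 fragments, 14306 of them at the GENCODE 44 exon length and the rest at a fitted length. Among genes with 20 or more fragments, 2881 of 13298 were whole at the GENCODE length, against 1 with sizes 1% larger or smaller. By the sizes found, the libraries held 15465497 to 18042299 fragments. The intervals given cover counting error only. The cell lines were tested with limma 3.58.1 under R 4.3.3 (eBayes with trend) on log2(FPKM + 0.5), over 15519 genes whose mean was 0.5 FPKM or more, with Benjamini-Hochberg adjustment over all of them, and the test was tested on simulated data. With 2 libraries per line an exact two-sided permutation test cannot go below p = 0.333. Promoters came from RefSeq, and shared stretches from GENCODE 44 transcripts. 26 symbols turned into dates were restored from their identifiers. The members and lists were chosen with earlier results of these data known. Named genes were all members and partners, called genes of the lists and of the region, the tested genes nearest to the cluster (at most 4 per side), defining markers at 0, and the 5 genes closest to MS4A3. PAX5, ELANE, CLC, CD14, CD163, TPSB2, PRG2, TPSAB1, PRTN3, AZU1, MPO, HBG2, KLF1, GATA1, GATA2, TAL1, CD79A and CD22 were named after their values were seen.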

Additional observations from a re-analysis of the deposited data

How the results depend on the processing

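The depth limited MS4A6E and MS4A7, and 2 libraries per line limited all comparisons. The number of genes called, 737, was 487 with a pseudocount of 1 FPKM, 1149 with limma voom on the recovered fragments, 4167 with the adjusted p alone, and 42 to 783 when 1 library was left out (144 without TF1-BA replicate 1, 42 without TF1-BA replicate 2, 427 without TF1-BAR replicate 2). Quantile normalization gave 697, of which 51.5% were higher in TF1-BAR, against 64.3% before, and rescaling to TPM moved the median difference of all tested genes from 0.066 to 0.14. Of the 4 tested MS4A members, 1 was called (MS4A3) with a pseudocount of 1 FPKM, no filter or quantile normalization, and 1 to 3 when a library was left out. The partner genes called were 3 with the adjusted p alone and 0 to 2 when a library was left out, with 0 without TF1-BA replicate 2. Of the genes beside the cluster, 3 were called with a pseudocount of 1 FPKM or no filter and 1 to 4 when a library was left out, with 1 without either TF1-BA replicate and 3 without TF1-BAR replicate 2. Fits without a library leave 1 sample in one line, assumed to vary like the other. The cause of these shifts was not tested. No direction of the 4 members' differences reversed among the calls made, and MS4A6A, which was not called, ranged from -0.19 to 0.017.

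The replicate numbers 1 and 2 are shared by both lines without a stated pairing, and the deviations of same-numbered libraries correlated at 0.065 over 15519 genes. With the replicate block 755 genes were called, among them 2 MS4A members, 2 partners and 5 genes beside the cluster.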
